A study of Mus musculus with 7 samples.

Results

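Fatty acid omega oxidation was followed through 9 genes: the hydroxylases Cyp4a10, Cyp4a12a, Cyp4a14, Cyp4a31, Cyp4f13, Cyp4f14, Cyp4f15 and Cyp4v3, and the fatty aldehyde dehydrogenase Aldh3a2. Members were the probe sets whose platform annotation gives 1 of these symbols and no other, and 10 of the 45101 probe sets on the array met that rule. They covered 8 of the 9 genes, because the Cyp4a10 symbol stood only on a probe set shared with Cyp4a31. The arrays were Affymetrix GeneChips for mouse, on which each probe set reads 1 transcript or group of similar transcripts as an intensity. The 4 glycerol kinase knockout livers and 3 wild type livers were taken on day of life 1 from male pups of the strain C57BL/6J, the wild type animals being littermates of knockout animals, with RNA of each liver on its own array. The labels do not describe how the knockout allele was made. According to the submitters, knockout pups of this age show no signs of glycerol kinase deficiency yet, so the comparison concerns transcripts before overt disease.

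Omega oxidation starts at the methyl end of a fatty acid, where a Cyp4 enzyme of the endoplasmic reticulum adds a hydroxyl group using electrons passed on by cytochrome P450 reductase and cytochrome b5. Alcohol and aldehyde dehydrogenases then turn that end into a second carboxyl group, and the resulting dicarboxylic acid is shortened mainly in peroxisomes. In liver the route is known as a minor outlet for fatty acids that gains weight when their supply is high, and Cyp4a10 and Cyp4a14 are textbook targets of the fatty acid receptor PPAR alpha.

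The array intensities had medians between 92.7 and 108.3, and arrays correlated with each other at r from 0.930 to 0.985 over the tested probe sets. Probes of the targeted gene were not used here, so the labels were not checked by it. The liver label was borne out by albumin (Alb), at 26464.9 to 39071.8 over all arrays, while 5 markers of kidney proximal tubule, another site of Cyp4a expression, lay between 12.0 and 157.9, with none at 0. The summed intensity of 8 hepatocyte markers overlapped between groups, at 198295.5 to 255991 in knockout livers and 216657.1 to 235541.8 in wild type livers. That of 9 erythroid markers did not overlap, at 69882.5 to 78162.8 in knockout livers and 89080.1 to 99827.4 in wild type livers, and 3 of the 9 fell by the test described next. Arrays scaled to equal medians left 0 of the 9 past that test, with 8 of 9 still lower, and between 0 and 4 passed when 1 array was left out. The sum of 6 endothelial markers was also lower in every knockout liver, at 7198.3 to 12648.5, against 12708.6 to 15212.7 in wild type livers, with 0 of the 6 past limma's test and 1 of them higher. In whole liver RNA, fewer cells of a type and less RNA per cell cannot be told apart, and the part of these shifts in the values below was not tested. Knockout 3 had the highest ratio of 3' to 5' control probe sets, a sign of RNA quality, of all 7 arrays for each of 4 control transcripts, for example 11.1 for transferrin receptor against 7.22 to 8.24 elsewhere.

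Of the 9 member probe sets bright enough to test, those of Cyp4a12a, Cyp4a31 (1 of 2) and Aldh3a2 rose in knockout liver, and 0 fell. The test was limma on log2(intensity + 16), with p-values adjusted by Benjamini-Hochberg over 22518 probe sets and a threshold of 0.05. Among all tested probe sets 4.24% passed, 2.35% as higher and 1.89% as lower in knockout. All knockout livers lay above all wild type livers for 4 of the 9 members and below them for 1, where 9.4% and 11.8% of all tested probe sets did so. The median log2 fold change was 0.52 over the 9 members and -0.03 over all tested probe sets, of which 45.8% had a value above 0. These counts and the median are descriptions only, since Cyp4a12a passed the filter on brightness through its knockout livers alone. Cyp4f14 was too dim to be tested.

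**Figure D1:**
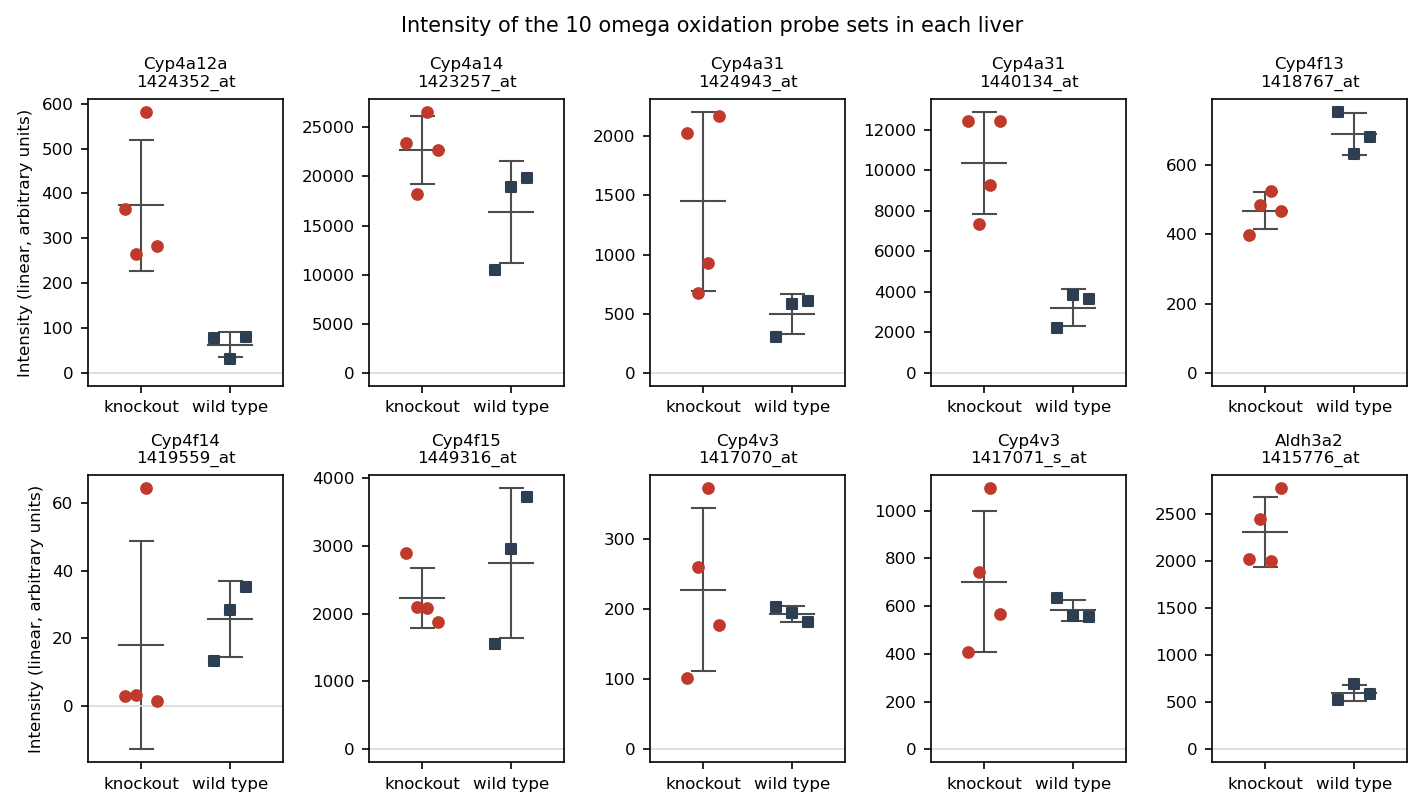
Intensity (vertical axes, linear, arbitrary units, a scale of its own in each panel) of the 10 member probe sets, with 1 point per liver, knockout as circles and wild type as squares, horizontal lines for group means and bars for the SD (n = 4 and 3). The points of the groups stand apart for Cyp4a12a, both Cyp4a31 probe sets, Cyp4f13 and Aldh3a2, and overlap for Cyp4a14, Cyp4f14, Cyp4f15 and both Cyp4v3 probe sets.

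Aldh3a2 rose with the smallest p of the members. It encodes the microsomal fatty aldehyde dehydrogenase, which oxidises the aldehyde made from an omega-hydroxy fatty acid and whose loss in humans causes Sjögren-Larsson syndrome. Its intensities were 2025.7, 2449.2, 2002.4 and 2775.2 in knockout livers 1 to 4, against 523.8, 692.0 and 584.7 in wild type livers 1 to 3. The lowest knockout liver was thus well above the highest wild type liver, and livers of a group differed little among themselves. The means were 2313 ± 370 in knockout and 600.2 ± 85.2 in wild type livers (SD, n = 4 and 3). The log2 fold change was 1.91 ± 0.17 (SE, limma adjusted p = 0.0014), a 3.77-fold higher level, and it stayed between 1.82 and 2.02 when 1 array was left out. By p, this probe set ranked 6 of 22518.

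The promoter of Aldh3a2 is shown because this is the called member with a RefSeq promoter sequence in the table used, and that of Cyp4f13 beside it because Cyp4f13 is the member whose knockout livers all lay below the wild type livers. Each window runs from 250 bases before to 50 bases after the annotated start, in build GRCm38.p6, 5′ to 3′ on the gene's strand. Aldh3a2 is read from chr11:61267137-61267436 and Cyp4f13 from chr17:32947312-32947611, both on the minus strand, and capitals mark a match to TTCNNNGAA, the palindrome bound by STAT5.
Aldh3a2: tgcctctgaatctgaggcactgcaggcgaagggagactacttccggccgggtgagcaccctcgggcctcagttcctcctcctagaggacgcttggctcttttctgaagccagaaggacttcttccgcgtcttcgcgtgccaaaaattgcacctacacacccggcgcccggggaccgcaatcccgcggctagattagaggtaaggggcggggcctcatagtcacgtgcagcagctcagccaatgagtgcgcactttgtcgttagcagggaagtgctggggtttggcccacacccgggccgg
Cyp4f13: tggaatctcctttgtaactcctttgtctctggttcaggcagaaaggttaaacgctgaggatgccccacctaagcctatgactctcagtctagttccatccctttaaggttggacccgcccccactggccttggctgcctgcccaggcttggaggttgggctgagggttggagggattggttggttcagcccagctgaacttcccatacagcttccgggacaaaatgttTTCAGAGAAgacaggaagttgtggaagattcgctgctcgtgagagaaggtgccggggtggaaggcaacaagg
The Aldh3a2 window holds 61.7% G and C and 21 CG pairs, and the Cyp4f13 window 54.0% and 6, against a median of 52.7% G and C over all 32851 promoter windows of 300 bases. Promoter windows were found for 5 of the 9 genes, Aldh3a2, Cyp4f13, Cyp4f14, Cyp4f15 and Cyp4v3, in 8 windows because Cyp4f14 has several starts. Both strands were searched for AGGTCA, the hexamer that a single nuclear receptor binds, found in 16.3% of all windows. They were also searched for the direct repeat of this hexamer with 1 base between the copies, the type of element PPAR alpha binds (0.04% of all windows), and for the same repeat with any base allowed in the place of the T (0.381%). The strict repeat contains the hexamer, and 0 of the 8 windows held any of these. The palindrome TTCNNNGAA, which overlaps none of them, occurred in 1 of the 8, that of Cyp4f13, and in 8.3% of all windows. For the repeats a count of 0 says little, because so few of all windows hold them. The Cyp4f14 windows also overlap each other, and no Cyp4a gene had a window.

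The Cyp4a genes lie in 1 cluster on chromosome 4, where Cyp4a14, Cyp4a10 and Cyp4a31 are direct neighbours. Cyp4a12a, a fatty acid hydroxylase known in adult mice for higher expression in males, had intensities of 364.1, 264.5, 581.5 and 282.9 in knockout livers 1 to 4, against 77.0, 31.9 and 80.6 in wild type livers 1 to 3. Every knockout liver was above every wild type liver, and knockout 3, the array with the highest control ratios, was the highest. The log2 fold change was 2.30 ± 0.32 (SE, limma adjusted p = 0.0068). It was between 1.97 and 2.48 with 1 array left out and passed in each of those 7 fits. The size of this change is poorly fixed, because all wild type intensities lay below the array medians and within the range of the kidney markers, and no detection calls were used here. The mean log2 level was 8.54 in knockout and 6.24 in wild type livers, against a filter level of 6.83, so the probe set was tested only because its knockout livers were bright. An offset of 1 in place of 16 gave 2.58 and an offset of 64 gave 1.75, both past the threshold.

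Cyp4a31 was read by a pair of probe sets, of which the brighter rose. Its intensities for 1440134_at were 12433.2, 7332.3, 9291.2 and 12420.4 in knockout livers 1 to 4, against 2190.1, 3858.5 and 3622.1 in wild type livers 1 to 3, with no overlap. The log2 fold change was 1.69 ± 0.23 (SE, limma adjusted p = 0.0064), a 3.23-fold higher level, between 1.43 and 1.84 with 1 array left out and past the threshold in all 7 of those fits. The dimmer probe set 1424943_at gave 2022.9, 673.8, 930.8 and 2167.6 in knockout livers 1 to 4, against 305.0, 585.0 and 603.4 in wild type livers 1 to 3. Its groups did not overlap either, but knockout 2 was close to the wild type range. Its log2 fold change was 1.41 ± 0.41 (SE, limma adjusted p = 0.0807). It passed without knockout 2, at 1.71 (adjusted p = 0.0485). In both probe sets knockout 2 was the lowest knockout liver and wild type 1 the lowest of all livers. Cyp4a10 and Cyp4a32, the genes on either side of Cyp4a31, are of similar sequence, and how far their transcripts reach these probe sets was not tested.

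Cyp4a14, a hydroxylase whose transcript is known to climb steeply in liver when PPAR alpha is activated, was already bright in wild type livers. Its intensities were 23423.7, 18204.9, 26564.5 and 22641.7 in knockout livers 1 to 4, against 10430.6, 18874.3 and 19790.9 in wild type livers 1 to 3. The groups overlapped, since knockout 2 lay below wild type 2 and 3, and wild type 1 stood apart at the low end. The log2 fold change of 0.52 ± 0.21 (SE, 95% confidence interval 0.04 to 0.99) did not pass (limma adjusted p = 0.192), and it was 0.22 without wild type 1. By mean log2 level over the 7 arrays this probe set stood at percentile 99.4 of all probe sets. The probe set shared by Cyp4a31 and Cyp4a10, 1424853_s_at, was left out by the rule because its signal cannot be assigned to either gene alone. It had a similar pattern, at 18778.7, 17005.3, 22200.2 and 19251.1 in knockout livers against 7212.6, 15912.3 and 17370.2 in wild type livers. Its log2 fold change was 0.61 ± 0.26 (SE, limma adjusted p = 0.203).

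**Figure D2:**
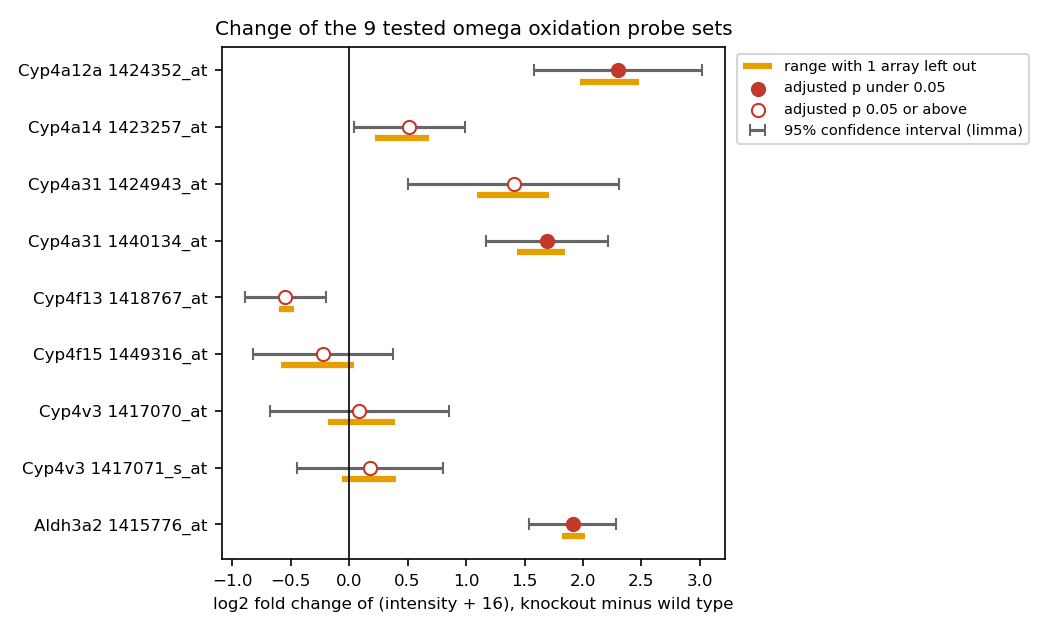
Log2 fold change (horizontal axis, knockout minus wild type, of intensity + 16) of the 9 tested member probe sets, with points for the value, filled where the adjusted p is under 0.05, grey bars for limma's 95% confidence interval and orange bars for the range with 1 array left out. Cyp4a12a at 2.30, Aldh3a2 at 1.91 and Cyp4a31 1440134_at at 1.69 are filled, and the orange bars of Cyp4f15 and both Cyp4v3 probe sets cross 0.

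Members were then compared with each other by the log2 difference of 2 probe sets in each array, set between groups by enumerating all 35 ways to split 7 arrays (exact permutation test, two-sided), for all 36 pairs. These comparisons were added after the values had been seen. The smallest p that the splits allow, 0.0286, was reached by 12 pairs. Their adjusted p over the 36 pairs was 0.0857, so 0 pairs passed. With this floor a pair can pass only if many pairs reach it together, so the lack of passing pairs decides nothing about a single pair. Pairs with a called member also reuse the values by which that member was called. Within the Cyp4a cluster, the change of Cyp4a14 minus that of Cyp4a31 1440134_at was -1.17 on the log2 scale (exact permutation p = 0.0286, adjusted p = 0.0857), and the per-array differences did not overlap between groups. Against the other Cyp4a31 probe set, 1424943_at, the difference was smaller, at -0.89, and did not reach the floor (exact permutation p = 0.171, adjusted p = 0.281).

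Among the Cyp4f genes, which lie in a cluster on chromosome 17 and whose human relatives hydroxylate leukotriene B4 and long fatty acids, 0 member probe sets passed. Cyp4f13 had intensities of 397.8, 485.4, 524.1 and 466.5 in knockout livers 1 to 4, against 753.9, 633.7 and 680.8 in wild type livers 1 to 3. All knockout livers were below all wild type livers, with means of 468.5 ± 52.9 in knockout and 689.5 ± 60.6 in wild type livers (SD, n = 4 and 3). The log2 fold change was -0.55 ± 0.16 (SE, 95% confidence interval -0.89 to -0.20) and did not pass over all probe sets (limma adjusted p = 0.0786, unadjusted p = 0.0056). With 1 array left out it stayed between -0.60 and -0.47.

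Cyp4f15 varied more within the groups than between them. Its intensities were 2885.9, 2092.9, 2075.4 and 1874.6 in knockout livers 1 to 4, against 1549.5, 2949.0 and 3725.1 in wild type livers 1 to 3, so that wild type livers held both the lowest and the highest value. The log2 fold change was -0.22 ± 0.27 (SE, limma adjusted p = 0.681). Leaving out wild type 1 gave -0.59, and leaving out wild type 3 gave 0.04. Cyp4f14, whose enzyme in mice omega-hydroxylates vitamin E and leukotriene B4, was close to the bottom of the range, at 3.1, 3.2, 64.4 and 1.6 in knockout livers 1 to 4 and 13.4, 28.5 and 35.3 in wild type livers 1 to 3. Its mean log2 level stood at percentile 17.3 of all probe sets, below the filter at the median, so it has no adjusted p.

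Cyp4v3, the mouse counterpart of human CYP4V2, a medium-chain fatty acid hydroxylase mutated in Bietti crystalline dystrophy, did not pass in either of its probe sets. The brighter one, 1417071_s_at, had intensities of 407.7, 743.6, 1093.3 and 568.0 in knockout livers 1 to 4, against 633.8, 558.8 and 554.2 in wild type livers 1 to 3. Knockout livers spread on both sides of the wild type livers, with a coefficient of variation of 41.8% in knockout and 7.67% in wild type livers. The dimmer one, 1417070_at, ranged from 101.4 to 372.7 in knockout livers and from 181.5 to 203.1 in wild type livers, with a coefficient of variation of 51.0% in knockout and 5.65% in wild type livers. The log2 fold changes were 0.18 ± 0.28 for 1417071_s_at and 0.09 ± 0.34 for 1417070_at (SE, limma adjusted p = 0.761 and 0.912). In both, knockout 3 was the highest liver and knockout 1 the lowest, and without knockout 3 the values were -0.06 and -0.18. The array of knockout 3 also had the highest control ratios given above, and their part in this value was not tested.

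**Figure D3:**
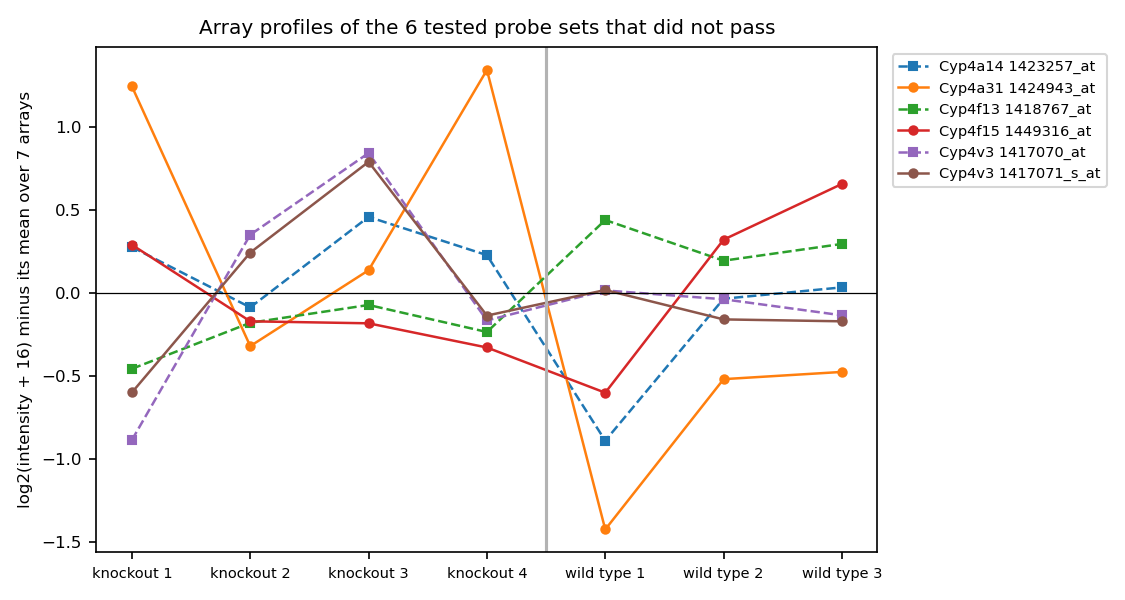
Log2(intensity + 16) minus its mean over the 7 arrays (vertical axis) for the 6 tested member probe sets that did not pass, by liver (horizontal axis, knockout left of the grey line and wild type right of it), with lines joining the points of 1 probe set. Both Cyp4v3 probe sets peak in knockout 3 and are lowest in knockout 1, whereas Cyp4a14 and Cyp4a31 1424943_at are lowest in wild type 1.

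The steps around the hydroxylation were described from lists of genes, each gene by its brightest tested probe set. Of 13 other Cyp4 genes 3 could be tested, and 0 passed limma's test (0 at an unadjusted p under 0.05, where 21.7% of all tested probe sets lay). Cyp4b1, a hydroxylase best known from lung, was at -0.12 ± 0.22 on the log2 scale and Cyp4f16 at 0.21 ± 0.18 (SE). Of the genes that pass electrons to microsomal P450 enzymes, 3 of 4 were tested and 0 passed by limma (1 at an unadjusted p under 0.05). The gene missing was Por, the cytochrome P450 reductase, which had no probe set with it as the only symbol. The supply of electrons was therefore covered only in part. Cytochrome b5, Cyb5a, had intensities of 16970 ± 996 in knockout and 17143 ± 269 in wild type livers (SD, n = 4 and 3), a log2 fold change of -0.02 ± 0.09. Cyb5r3, its reductase, was at 0.05 ± 0.25. Cyb5b, the cytochrome b5 of the outer mitochondrial membrane, named after its values had been seen, had intensities of 1685.4, 1690.1, 3855.8 and 1790.1 in knockout livers 1 to 4, against 1234.2, 1433.9 and 1206.1 in wild type livers 1 to 3. Its groups did not overlap, knockout 3 was far above the other livers, and its log2 fold change was 0.70 ± 0.27 (SE, limma adjusted p = 0.168).

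The alcohol and aldehyde dehydrogenases that can act next to Aldh3a2 included 7 tested genes of 9. Of these 6 were higher in knockout, beside 45.8% of all tested probe sets, and 0 passed limma's test. At an unadjusted p under 0.05 lay 2 of them, beside 21.7% of all tested probe sets. The median log2 fold change of the 7 genes was 0.33. Adh1, the main alcohol dehydrogenase of liver, was at 0.20 ± 0.24 and Adh5, the glutathione-dependent formaldehyde dehydrogenase, which also oxidises omega-hydroxy fatty acids, at -0.05 ± 0.11 (SE). Aldh9a1, named after its values had been seen, had the highest value of the list, 0.55 ± 0.15 (limma adjusted p = 0.0684). Aldh3a1, the neighbour of Aldh3a2 on chromosome 11, was too dim to be tested.

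Genes that activate dicarboxylic and other long acids, or import and shorten them in peroxisomes, were higher in knockout in 16 of 16 tested cases. The list held 19 genes, and 11 of the 16 tested rose. Among all tested probe sets 45.8% were higher in knockout and 2.35% passed as higher. The median log2 fold change of the 16 genes was 0.78, beside the -0.03 of all tested probe sets. Abcd3, the peroxisomal membrane transporter that brings in dicarboxylic acids, had intensities of 17091.2, 13139.5, 12243.3 and 17298.3 in knockout livers 1 to 4, against 3779.0, 5760.3 and 4058.4 in wild type livers 1 to 3. Its groups did not overlap, and its log2 fold change was 1.73 ± 0.18 (SE, limma adjusted p = 0.0020). The thiolase Acaa1b rose by 2.99 ± 0.23, Crot, which makes carnitine esters of shortened acids, by 2.66 ± 0.28, and the thioesterase Acot4, which acts on succinyl-CoA, by 2.34 ± 0.24. Bright genes that did not pass were the acyl-CoA synthetase Acsl5 at 0.40 ± 0.11 (adjusted p = 0.0780) and the racemase Amacr at 0.44 ± 0.14 (adjusted p = 0.101). The count of 11 became 7 when either wild type 2 or wild type 3 was left out, and the 16 genes were all higher in each of those fits.

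Among regulators of Cyp4 genes 15 of 16 were tested, 11 of them higher and 4 lower in knockout. By limma 5 lay at an unadjusted p under 0.05, where 21.7% of all tested probe sets lay. Past the threshold 1 rose, Fabp1, the fatty acid carrier of liver cytosol, itself also a PPAR alpha target, at 0.81 ± 0.17 (SE, limma adjusted p = 0.0340). Fabp1 passed in 9 of 17 alternative fits and in 2 of the 7 with 1 array left out, where its log2 fold change was 0.69 to 0.98 and its adjusted p reached 0.144, and it did not pass with a replicate block (adjusted p = 0.0969). Ppara itself, named after its values had been seen, had intensities of 3944.0, 4151.5, 2722.6 and 4746.1 in knockout livers 1 to 4, against 3249.0, 3664.1 and 3971.6 in wild type livers 1 to 3. Its groups overlapped, with a log2 fold change of 0.08 ± 0.18 (limma adjusted p = 0.849). Hnf4a, a hepatocyte transcription factor, was at 0.07 ± 0.16, and Lpin1, a phosphatidate phosphatase that also coactivates PPAR alpha, at -1.24 ± 0.47 (limma adjusted p = 0.160). Named after their values had been seen, Ppargc1a was at -0.57 ± 0.25 (limma adjusted p = 0.215) and Med1 at -0.26 ± 0.14 (limma adjusted p = 0.306). Chosen likewise, Ghr was at 0.68 ± 0.23 (limma adjusted p = 0.118) and Nr1i3 at 0.61 ± 0.23 (limma adjusted p = 0.155). Of the 5 tested probe sets of Ppargc1a 0 were higher in knockout, and the groups of Med1, Lpin1 and Nr1i3 did not overlap. The size for Lpin1 depended on single arrays, between -1.50 and -0.71 with 1 array left out. Of 7 other fatty acid hydroxylases and epoxide enzymes 5 were tested and 0 passed by limma (3 at an unadjusted p under 0.05). Cyp2e1, which hydroxylates fatty acids beside the methyl end, was at -0.04 ± 0.12, and the soluble epoxide hydrolase Ephx2 at 0.64 ± 0.17 (limma adjusted p = 0.0643). Cyp2j5, an arachidonic acid epoxygenase, at 1.24 ± 0.40 (limma adjusted p = 0.111), and Cyp2j6 of the same subfamily, at 0.67 ± 0.19 (limma adjusted p = 0.0786), were named after their values had been seen. Cyp2j5 passed in 1 of 17 alternative fits, that with a replicate block (adjusted p = 0.0256). Of 8 genes that handle further products or branched acids 5 were tested and 1 rose, Phyh, the peroxisomal phytanoyl-CoA hydroxylase, at 0.60 ± 0.15 (limma adjusted p = 0.0493). Phyh passed in 5 of 17 alternative fits and in 1 of the 7 with 1 array left out, that without knockout 1, with an adjusted p of up to 0.152 in the others and of 0.0756 with a replicate block. Hpgd, the prostaglandin dehydrogenase, was at -0.66 ± 0.20 (limma adjusted p = 0.0915) and Aldh1l1 at -0.18 ± 0.11.

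**Figure D4:**
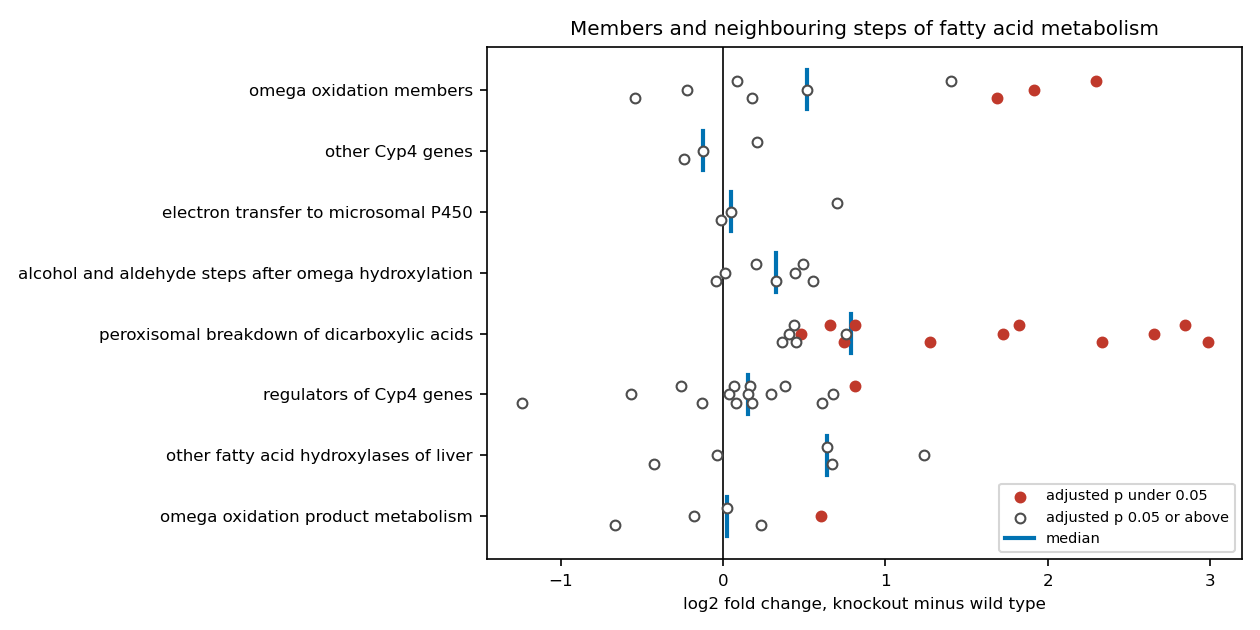
Log2 fold change (horizontal axis, knockout minus wild type) of the 9 tested member probe sets and, 1 point per gene, of the tested genes of 7 lists, filled where the adjusted p is under 0.05, with a blue bar at each median. The peroxisomal list lies wholly above 0 with 11 of 16 points filled, while the members spread from -0.55 to 2.30 and the points of the electron transfer list are all open.

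Array profiles like those of the 3 called members were sought by the root mean square difference, over 7 arrays, of log2 levels each centred on its own mean. Nearest to Aldh3a2 were Depdc7 at 0.10, Entpd5, a nucleotide hydrolase of the endoplasmic reticulum, at 0.17, and Paqr9 at 0.20, where the median over tested probe sets with 1 symbol was 1.00. Depdc7 had intensities of 455.2, 560.5, 469.8 and 648.7 in knockout livers 1 to 4, against 126.8, 136.6 and 142.1 in wild type livers 1 to 3, so its knockout livers stood in nearly the same order as those of Aldh3a2. Nearest to Cyp4a31 1440134_at were Aadat, an aminotransferase of lysine and tryptophan breakdown, at 0.11, the monoacylglycerol lipase Abhd6 at 0.15 and Reep6 at 0.17, with a median of 0.95. Cyp4a12a had no profile as near. The steroid dehydrogenase Hsd3b3 was at 0.34, the microsomal epoxide hydrolase Ephx1 at 0.39 and Serpina6, the corticosteroid carrier of plasma, at 0.44, with a median of 1.26. These distances are descriptions, and they rest mostly on the gap between groups that chose the called members.

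**Figure D5:**
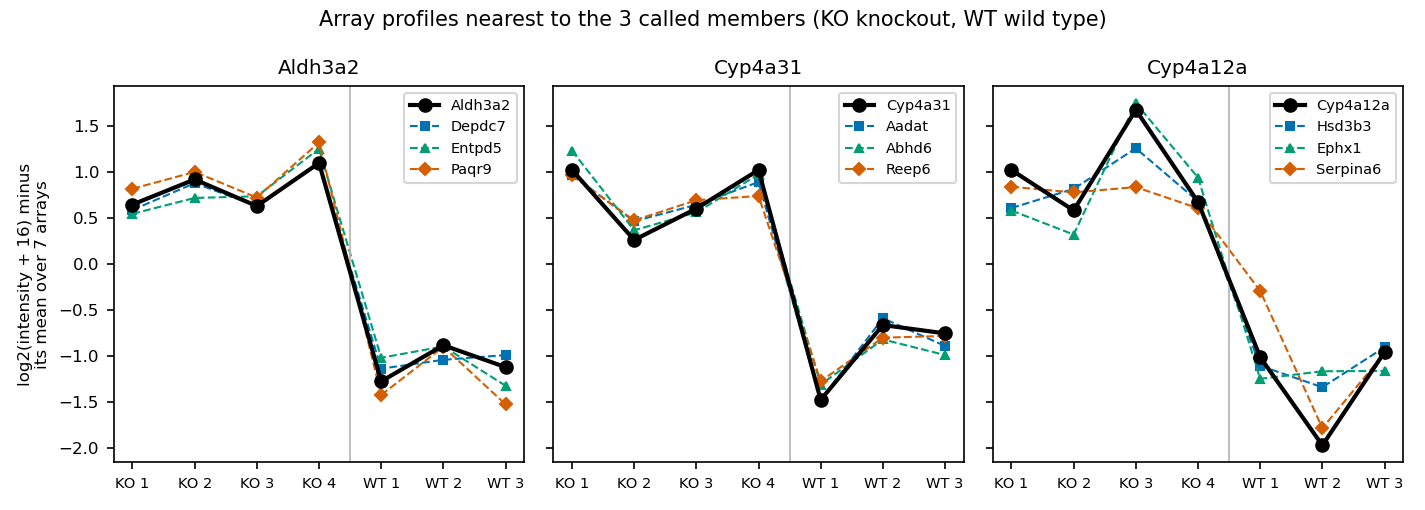
Log2(intensity + 16) minus its mean over 7 arrays (vertical axis) in each liver (horizontal axis, KO knockout, WT wild type) for Aldh3a2, Cyp4a31 1440134_at and Cyp4a12a (black) and the 3 genes of nearest profile to each (coloured, dashed), with lines joining the points of 1 gene. The profiles around Aldh3a2 and Cyp4a31 run closely together, at 0.10 to 0.20, while those around Cyp4a12a differ more, at 0.34 to 0.44.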

How the data were processed

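The deposited values are linear intensities from 7 arrays. The submitters' processing notes name GCOS but no version, and how probes were combined is unknown here. The authors had scaled the arrays alike: each deposited intensity column averaged 500.003 after trimming 2% at either end, so a change in total messenger RNA cannot be seen.

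Intensities were turned into log2(intensity + 16), without further scaling because array medians lay within 0.2 of each other (0.193). After 64 control probe sets were removed, those whose mean exceeded the overall median were kept and tested with limma 3.58.1 (R 4.3.3, lmFit, eBayes with a trend, no covariates). Fold changes of dim probe sets are understated by the offset. Labels say each array holds 1 animal's liver, and batches were not given. Array number limits precision. The steps were tested on simulated data. Names come from the platform annotation, in which 34958 probe sets have 1 symbol, 932 several and 9211 none, and all 10 member probe sets matched by gene ID to RefSeq (GRCm38.p6), which also gave the promoters. Plots used matplotlib 3.10.9.

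Members and lists were chosen with earlier results of these data known. All members are named. From each list, called genes of smallest p (up to 4) and bright genes that did not pass (up to 2) are named, and other list genes were chosen after their values were seen. Alternatives covered offset, scaling, filter, variance model, threshold, shared probe sets, each array left out and a replicate block.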

Additional observations from a re-analysis of the deposited data

Results flagged for a closer look

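Cyp4f14 in knockout 3 stood far from the other knockout livers, at an intensity of 64.4 against 1.6 to 3.2. All 7 intensities are too low for the probe set to be tested. Each of the 10 member probe sets was examined this way in the group of 4 knockout livers, and about 1 in 20 such groups is expected to stand out by chance.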

How the results depend on the processing

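Cyp4a12a, Cyp4a31 1440134_at and Aldh3a2 kept their direction and their side of the threshold in every alternative fit that tested them, including each array left out, and only Cyp4a12a went untested in one, where probe sets had to exceed the 75th percentile. The number of member probe sets called was 3, between 3 and 4 with 1 array left out, and 5 at an adjusted p under 0.10. Over all probe sets, 955 were called, and 473 without a filter, 584 with eBayes without a trend, 538 with shared probe sets left out, 142 at an adjusted p under 0.01, 2032 under 0.10, and 127 to 1006 with 1 array left out. Of the calls 55.4% were higher in knockout, or 71.3% with arrays scaled to equal medians. Deviations from the group means correlated at 0.09, -0.06 and 0.06 for replicate numbers 1, 2 and 3, and between -0.13 and 0.12 for unlike numbers. These correlations cannot tell whether the livers were paired. A replicate block left 351 probe sets called, among them the same 3 members, and 7 genes of the peroxisomal list, which had 11 and, with 1 array left out, 7 to 11. That check of the list, and the counts of fits in which Fabp1, Phyh and Cyp2j5 passed, were added after seeing the data. With 1 array left out, log2 fold changes crossed 0 for Cyp4f15 (-0.59 to 0.042, positive without wild type 3), Cyp4v3 1417070_at (-0.18 to 0.39, negative without knockout 2 or 3) and Cyp4v3 1417071_s_at (-0.060 to 0.40, negative without knockout 3). The causes were not tested.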
